A study of Mus musculus with 6 samples.

Results

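Imprinted genes are transcribed mainly or only from the copy inherited from 1 parent. Most sit in domains where DNA methylation laid down in the germ line marks 1 parental copy. Many of them act on fetal growth and nutrient supply, among them Igf2 and the receptor Igf2r that clears it, and several are shut down in the liver soon after birth. Noncoding RNAs such as Airn and Kcnq1ot1 silence their neighbours in cis. The genes described here are known mouse imprinted genes and close neighbours in their domains, outside the Meg3 domain of chromosome 12. The rule lists them by name and uses no measured value, although the list was drawn up with earlier results of these data known. Of 38 genes in 19 domains, 35 were measured among the 20107 genes of the table, and Usp29, Magel2 and Rasgrf1 were not analysed here.

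RNA came from livers of wild-type male C57BL/6N mice (Envigo), all aged 16 weeks and littermates by the design text. The HFHC group had a high-fat, high-calorie food with fructose and a high-fructose drink from 8 weeks of age for 8 weeks, and the Chow group stayed on chow. Each group held 3 mice, labelled here as HFHC replicates 1, 2 and 3 and Chow replicates 7, 8 and 9, with 1 library per mouse. The comparison is HFHC against Chow, and it addresses what the regimen does to hepatic expression. Reads carry no parental allele here, so a level is the sum over both copies.

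Library totals ran from 26767416 to 30871297 counts. Levels are CPM values, a gene's count over the TMM-scaled library total in megacounts, and a log2 fold change is HFHC over Chow with its standard error (SE). A gene was called at a Benjamini-Hochberg adjusted p under 0.05 in edgeR's quasi-likelihood test over 14896 genes, of which 503 were higher (3.38%) and 491 lower (3.3%) in HFHC, 6.67% in all. Without Chow replicate 7, the library whose absence left the fewest calls, 207 were higher and 154 lower. Hepatocyte markers, among them albumin, summed to 80830 to 100400 CPM in Chow and 86560 to 89470 CPM in HFHC. Of 9 hepatocyte markers tested, 2 were called lower, the urea cycle gene Cps1 (4961 ± 549 CPM in Chow and 2956 ± 364 CPM in HFHC, SD, n = 3) and the apolipoprotein gene Apob (9956 ± 1004 and 7366 ± 522 CPM), and none higher. The call of Apob was kept only without Chow replicate 8 and lost after a GC and length correction (adjusted p = 0.509 by edgeR). The summed markers of stellate, sinusoidal endothelial, bile duct, lymphoid, neutrophil, pancreatic acinar and erythroid cells overlapped between diets. Only 1 of 6 pancreatic acinar markers and 4 of 6 neutrophil markers were measured, and of the latter 1 was tested. Among the tested members of all these lists only the haemoglobin gene Hba-a1 was called, as higher (24.9 ± 1.21 CPM in Chow and 32.1 ± 1.40 CPM in HFHC). Its call was kept only without Chow replicate 8 and lost after the correction (adjusted p = 0.104 by edgeR). The part of these markers in the results below was not tested. Kupffer cell and macrophage markers (10 of 10 measured) summed to 314 to 379 CPM in HFHC and 264 to 311 CPM in Chow, with no overlap, and none of the 10 was called (two-sided exact permutation p = 0.1, the smallest that 3 against 3 allows, and 0.5 adjusted over 10 lists). Of the adipocyte markers only Cfd was measured, called higher except without Chow replicate 7 or 9 (adjusted p up to 0.0885 by edgeR), at 0.382 to 1.70 CPM in HFHC and 0 to 0.0377 CPM in Chow. In bulk tissue, fewer cells of a type and less RNA per cell cannot be told apart.

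By edgeR the diets differed in 4 imprinted-domain genes, of which Ddc alone was called under every alternative run. Ddc, the aromatic amino acid decarboxylase beside Grb10, fell by 31.5%. The amino acid transporter gene Slc38a4 fell by 26.2%, and the ubiquitin ligase gene Ube3a fell by 24.5%. The tetraspanin gene Cd81 rose by 30.9%. Slc38a4, Ube3a and Cd81 lost their calls after a correction for GC content and transcript length, where the log2 fold change of Ube3a went from -0.40 to -0.08, and in 5, 4 and 4 of the 6 fits without a library. The growth regulators Igf2r, Grb10, Plagl1 and Cdkn1c did not pass, and H19 and Igf2 had at most 21 counts in any liver.

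Of the 35 genes measured, 29 passed the filter on low counts, and 3 of these were called lower and 1 higher, which is 13.8% against 6.67% of all genes (lower 3.3%, higher 3.38%). Their median log2 fold change was 0.005, against -0.003 over all tested genes, with 15 positive and 14 negative. The median size of the change, whichever its sign, was 0.19 for them and 0.16 over all tested genes. In 8 of the 29 (27.6%) the diets did not overlap, 3 higher and 5 lower in HFHC, and the share over all tested genes was 27.8%. At an unadjusted p under 0.05 there were 7 of 29, where 22.2% of all genes reached that level. So the imprinted genes did not move one way, and their separation by diet was close to that of the rest of the table.

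**Figure D1:**
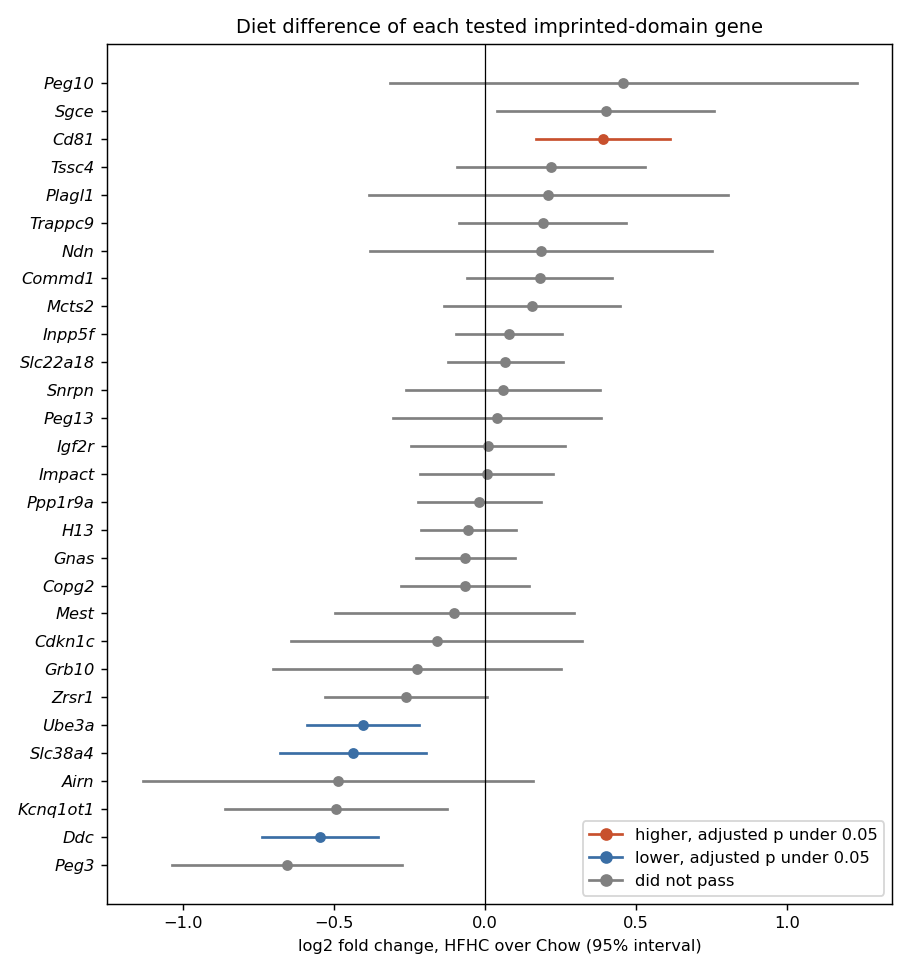
Log2 fold change, HFHC over Chow, of the 29 tested genes with its 95% interval (horizontal axis), sorted by size; colours mark genes called higher or lower at an adjusted p under 0.05. The values run from -0.66 for Peg3 to 0.46 for Peg10, and 4 genes are coloured.

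Grouped by what is known of their imprinting, 14 tested genes were classed as paternally expressed, and 1 of them (Slc38a4, 7.14%) was called, as lower. The imprinting of Slc38a4 is clearest in placenta, and which copy these livers use was not measured. None of the 4 tested genes of mainly maternal expression was called (Igf2r, Grb10, Cdkn1c and Slc22a18). The remaining 11 are imprinted in certain tissues or transcripts, such as neurons for Ube3a and placenta for Cd81, and gave the other 3 calls (Ddc, Ube3a and Cd81, 27.3%). Against 6.67% of all genes, the count of 1 in 14 is near the background, and 4 genes are too few to read a count of 0. Whether the classes differ was not tested.

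Levels spanned a wide range. In 9 of the 35 genes the mean was under 1 CPM in both diets, 14 reached 1 to 20 CPM in the higher diet and 12 at least 20 CPM. Per kilobase of exon, Slc38a4 stood first in Chow at 329 CPM per kb, 5.74-fold above Cd81 at 57.4. Slc22a18 (37.1), Gnas (25.3), Ddc (19.3) and H13 (9.36) followed, all on the scale of CPM per kb. At the other end Zim1, Phlda2, Nnat and Igf2 were each under 0.07 CPM per kb in Chow. Slc38a4 alone gave 56.7% of the summed CPM of these genes in Chow and 49.6% in HFHC.

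**Figure D2:**
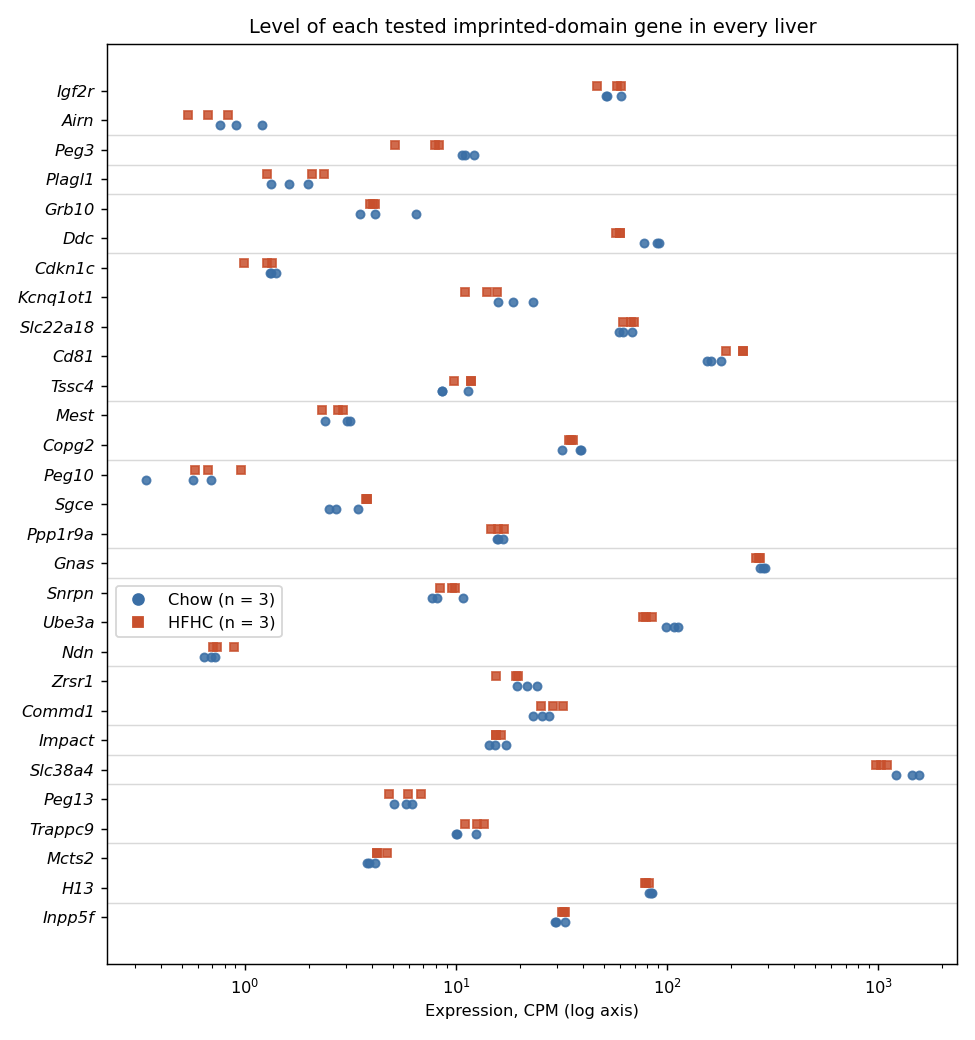
CPM of the 29 tested genes in each of the 6 livers (log axis), with circles for Chow and squares for HFHC and lines between domains. Levels run from 0.339 CPM for Peg10 in Chow replicate 9 to 1555 CPM for Slc38a4 in the same liver.

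Ddc lies on chromosome 11 at 11814101 to 11898144 (mm10, minus strand), next to Grb10, and in heart it has a paternally expressed transcript. In HFHC it stood at 59.9, 56.9 and 59.7 CPM in replicates 1, 2 and 3, and in Chow at 77.3, 89.5 and 91.0 CPM in replicates 7, 8 and 9. Every HFHC liver was below every Chow liver, and the HFHC livers lay close together. The log2 fold change was -0.55 ± 0.09 (SE, 95% interval -0.74 to -0.36, adjusted p = 0.00717 by edgeR). Ddc was called under all 15 alternatives, with -0.62 to -0.50 when a library was left out and -0.59 after a correction of each library for GC content and transcript length. Its neighbour Grb10, an adaptor that dampens insulin and IGF receptor signalling, stood at 4.04, 3.91 and 4.12 CPM in HFHC and at 3.49, 6.46 and 4.15 CPM in Chow. The Chow value of replicate 8 was above all others, and the diets overlapped (-0.23 ± 0.21, adjusted p = 0.589). Without Chow replicate 8 the log2 fold change of Grb10 was 0.08.

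Slc38a4 encodes the system A transporter SNAT4, which brings neutral amino acids into hepatocytes, and it is known as paternally expressed, most clearly in placenta. It lies on chromosome 15 at 96994820 to 97055956 (minus strand). HFHC livers held 1101, 1029 and 978 CPM, and Chow livers 1446, 1209 and 1555 CPM. The lowest Chow liver, replicate 8, was above the highest HFHC liver, replicate 1. The log2 fold change was -0.44 ± 0.11 (adjusted p = 0.0433 by edgeR). Of the 6 fits with a library removed, the call was kept in the one without Chow replicate 8 and lost in the others (adjusted p 0.0766 without HFHC replicate 1, 0.107 without HFHC replicate 2, 0.110 without HFHC replicate 3, 0.149 without Chow replicate 7 and 0.140 without Chow replicate 9). Upper-quartile factors also ended the call (0.0528), and so did the GC and length correction (-0.37, 0.0705). Its values were not whole in all 6 libraries, so they are estimates rather than whole reads.

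Ube3a, on chromosome 7 at 59228750 to 59311536 (plus strand), encodes a ubiquitin ligase that is expressed from the maternal copy in neurons and from both copies in most other tissues. It stood at 76.8, 79.7 and 84.4 CPM in HFHC and at 108, 98.3 and 113 CPM in Chow, again without overlap. The log2 fold change was -0.40 ± 0.08 (adjusted p = 0.0215 by edgeR). After the GC and length correction it was -0.08 (adjusted p = 0.588), and the call was also lost without HFHC replicate 1 (0.0837), HFHC replicate 2 (0.0678), Chow replicate 7 (0.0897) or Chow replicate 9 (0.0833). Its longest transcript has 9.86 kb and a GC content of 36.9%. Over all tested genes, the fifth with the longest transcripts (from 5.001 kb) had a median log2 fold change of -0.12 with 240 genes called lower and 47 higher. The fifth with the lowest GC content (up to 43.5%) had a median of -0.10 with 192 lower and 51 higher. Exons of antisense transcripts, Snhg14 among them, cover 27.3% of its exonic bases, and whether the counting used strand is not stated in the labels.

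Cd81 lies on chromosome 7 at 143052739 to 143067934 (plus strand), at the edge of the Kcnq1ot1 domain. It encodes a membrane protein of many cell types, known in liver as an entry factor for hepatitis C virus in people. HFHC livers held 191, 229 and 229 CPM and Chow livers 162, 179 and 155 CPM. Replicate 1 was the lowest HFHC liver and still above every Chow liver. The log2 fold change was 0.39 ± 0.10 (adjusted p = 0.0482 by edgeR). The call was lost without HFHC replicate 2 (adjusted p = 0.139), HFHC replicate 3 (0.113), Chow replicate 7 (0.164) or Chow replicate 9 (0.159). It was lost too after the GC and length correction (0.31, 0.109). The summed Kupffer cell and macrophage markers were also higher in each HFHC liver, by 0.22 on the log2 scale, and their part in the level of Cd81 was not tested. Values of Cd81 were not whole in all 6 libraries.

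**Figure D3:**
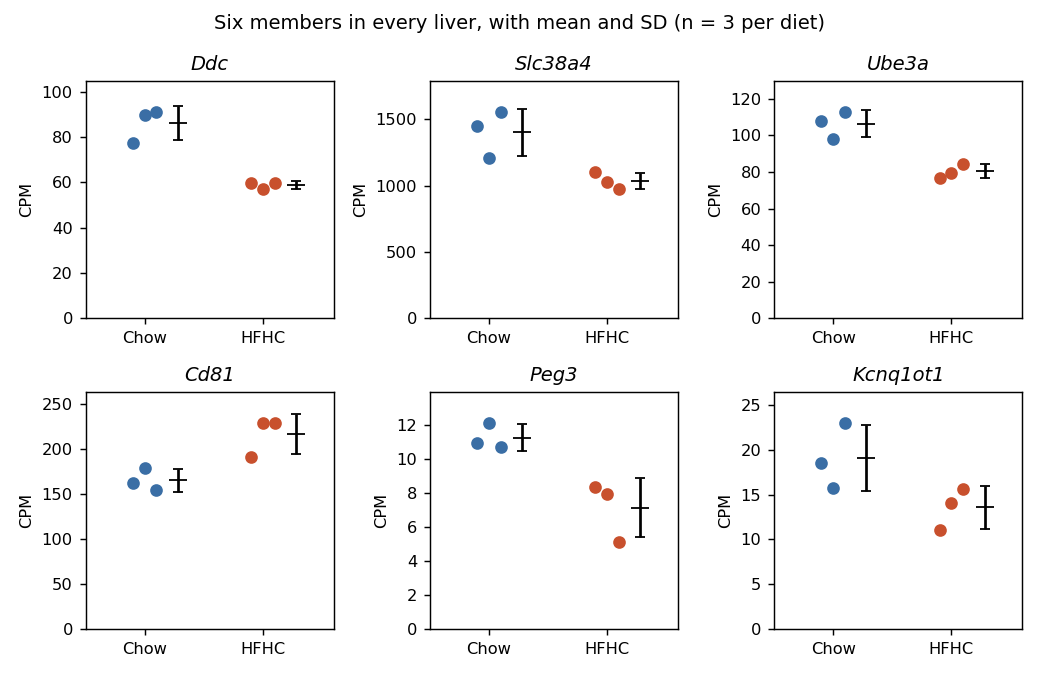
CPM of Ddc, Slc38a4, Ube3a, Cd81, Peg3 and Kcnq1ot1 in each liver (vertical axes start at 0), with the mean and SD of 3 livers per diet in black. In each panel the diets do not overlap, and for Kcnq1ot1 the gap is narrow, 15.7 CPM in HFHC replicate 3 against 15.8 CPM in Chow replicate 8.

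The called genes differ in what lies before their starts. The 250 bases upstream of each are shown to set the CpG-poor windows of Ddc and Slc38a4 beside the CpG-rich windows of Ube3a and Cd81. Sequences are RefSeq's on GRCm38.p6, read 5′ to 3′ on the strand of the gene, with each CG dinucleotide in capitals. They end at the RefSeq start nearest to the table's, which for Cd81 lies 11 bases inside the gene as the table gives it. RefSeq has other starts within Ddc and Slc38a4, with 4 CG before the one in Ddc and 5 before each of those in Slc38a4. Which start these livers use was not tested.
Ddc, chr11:11898145-11898394, minus strand: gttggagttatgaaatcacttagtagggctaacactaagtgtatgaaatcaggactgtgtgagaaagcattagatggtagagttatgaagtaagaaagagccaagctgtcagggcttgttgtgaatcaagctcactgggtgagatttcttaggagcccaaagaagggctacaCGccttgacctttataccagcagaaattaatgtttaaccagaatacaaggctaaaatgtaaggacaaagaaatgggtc
Slc38a4, chr15:97055957-97056206, minus strand: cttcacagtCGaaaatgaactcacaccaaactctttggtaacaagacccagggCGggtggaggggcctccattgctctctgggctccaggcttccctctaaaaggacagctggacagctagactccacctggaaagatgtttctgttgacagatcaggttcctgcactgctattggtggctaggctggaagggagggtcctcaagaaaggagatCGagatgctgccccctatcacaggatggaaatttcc
Ube3a, chr7:59228500-59228749, plus strand: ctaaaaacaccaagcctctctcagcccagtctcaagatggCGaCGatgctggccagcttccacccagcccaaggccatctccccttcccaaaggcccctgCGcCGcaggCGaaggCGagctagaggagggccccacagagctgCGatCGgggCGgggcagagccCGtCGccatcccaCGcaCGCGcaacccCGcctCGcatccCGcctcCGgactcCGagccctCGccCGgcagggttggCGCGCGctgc
Cd81, chr7:143052500-143052749, plus strand: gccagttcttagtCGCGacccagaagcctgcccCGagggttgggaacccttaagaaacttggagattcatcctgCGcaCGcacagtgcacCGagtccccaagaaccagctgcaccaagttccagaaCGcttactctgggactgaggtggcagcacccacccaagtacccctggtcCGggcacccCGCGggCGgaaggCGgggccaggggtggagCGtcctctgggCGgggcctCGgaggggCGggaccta

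CG occurred 1 time before Ddc, 3 times before Slc38a4, 24 times before Ube3a and 16 times before Cd81, where the median over 32851 promoter windows of the same length was 6. Taking for each gene the window nearest to its start in the table, 28 of the 35 genes had one. These windows had a median of 11.5 CG, and those of Plagl1 and Mest lay 30328 and 9959 bases from that start. The letters TGCCGC, the core bound by the imprint-protecting factor ZFP57, were in 5 of these 28 windows on either strand (17.9%, against 8.68% of all windows), those of Zim1, Plagl1, Copg2, Mcts2 and Nap1l5. TGCCGC itself contains a CG, and the part of the higher CG content of these windows in that share was not tested. The letters GCCAT, the core of YY1 sites, were in 11 of 28 (39.3%, against 32.9%), Ube3a with 3 copies among them. Neither was found in the windows shown for Ddc, Slc38a4 or Cd81, which says only that these letters are not in these windows. GCCAT did occur before the other RefSeq start of Ddc (2 copies) and before another start of Slc38a4 (1 copy). TGCCGC occurred before another RefSeq start of Mest (2 copies), in a window that is not among the 28.

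Peg3 encodes a zinc finger protein and starts head to head with Usp29 on chromosome 7. The 163 bases between the RefSeq starts of this paternally expressed pair are shown because each gene starts from one end of them, on the strand of Peg3 with CG in capitals. The start of Peg3 in the table lies 12 bases further upstream than the RefSeq start, so 12 of these bases are inside Peg3 as counted.
Peg3 to Usp29, chr7:6730420-6730582, minus strand: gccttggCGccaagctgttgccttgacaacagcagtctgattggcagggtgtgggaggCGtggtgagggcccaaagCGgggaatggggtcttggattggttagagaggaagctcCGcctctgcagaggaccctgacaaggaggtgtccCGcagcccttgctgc
Peg3, at 6703892 to 6730431 (minus strand), stood at 8.33, 7.97 and 5.13 CPM in HFHC and at 10.97, 12.2 and 10.7 CPM in Chow. All HFHC livers were lower, replicate 3 by the most. With -0.66 ± 0.17 on the log2 scale it had the lowest log2 fold change among the 29 tested genes and did not pass (adjusted p = 0.0514 by edgeR). It passed with DESeq2 (adjusted p = 0.00759), limma-voom (0.0479) and median-ratio factors (0.0499), and in none of the 6 fits without a library (0.0526 to 0.129). Over all genes DESeq2 called 8.09%, limma-voom 6.4% and the fit after the GC and length correction 5.73%. Its maternally expressed neighbour Zim1 had 6 counts over the HFHC livers and 6 over the Chow livers.

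Kcnq1ot1, the noncoding RNA that silences its domain on the paternal copy, stood at 11.01, 14.1 and 15.7 CPM in HFHC and at 18.5, 15.8 and 23.0 CPM in Chow. It did not pass (-0.49 ± 0.16, adjusted p = 0.110 by edgeR) and passed with DESeq2 (0.0483). After the GC and length correction its log2 fold change was 0.012, from a single exon of 93.1 kb with a GC content of 40.3%. The fifth of genes with the longest transcripts runs from 5.001 to 123.2 kb, and how well the correction holds at 93.1 kb was not tested. The exons of Kcnq1 and small RNA genes on the opposite strand cover 1.2% of Kcnq1ot1. The maternally expressed genes of the domain did not pass the test. Cdkn1c, an inhibitor of cell division, stood at 1.34, 0.993 and 1.27 CPM in HFHC and 1.33, 1.31 and 1.40 CPM in Chow (-0.16 ± 0.21, adjusted p = 0.718), and an antisense gene covers 30.7% of its exonic bases. Slc22a18, a transporter-like gene, stood at 67.2, 61.9 and 69.2 CPM in HFHC and 61.8, 59.3 and 68.1 CPM in Chow. The diets overlapped through Chow replicate 9 (95% interval of the log2 fold change -0.12 to 0.26). Tssc4, beside Cd81, held 9.77, 11.7 and 11.7 CPM in HFHC and 8.58, 11.4 and 8.56 CPM in Chow (0.22 ± 0.14, adjusted p = 0.406), and Trpm5 on the other strand covers 11.9% of its exonic bases. Phlda2, a growth-restraining gene of placenta, had 3, 4 and 6 counts in HFHC and 0, 1 and 2 in Chow, too few for the filter, and with no filter its adjusted p was 0.303.

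In the H19 and Igf2 domain, both genes had few counts. H19, the noncoding RNA that hosts miR-675, had 10, 21 and 3 counts in HFHC and 5, 3 and 9 in Chow, a spread wider within HFHC than between the diets. Igf2, the fetal growth factor, had 6 counts in each HFHC liver and 7, 12 and 10 in Chow. With no count filter the adjusted p of Igf2 was 0.330 and that of H19 0.592. Exons of a transcript on the same strand cover 62.8% of those of Igf2, so even these counts are uncertain.

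Igf2r, which clears IGF2 and sorts lysosomal enzymes, held 57.5, 60.6 and 46.4 CPM in HFHC and 51.0, 60.5 and 52.0 CPM in Chow. The diets overlapped, and the log2 fold change was 0.009 ± 0.11 with a 95% interval of -0.25 to 0.26. Airn, the antisense RNA that silences the paternal Igf2r, stood at 0.668, 0.832 and 0.537 CPM in HFHC and 0.759, 1.20 and 0.905 CPM in Chow (-0.49 ± 0.29, adjusted p = 0.365). Its interval, -1.13 to 0.16, leaves a wide range at this level of 16 to 33 counts a liver. No exon of Airn shares bases with Igf2r.

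Plagl1 and Mest also had low levels. Plagl1, a zinc finger transcription factor, stood at 2.07, 2.37 and 1.27 CPM in HFHC and 1.33, 1.99 and 1.62 CPM in Chow, with overlap (0.21 ± 0.26, adjusted p = 0.701). Mest, at 2.31 to 2.89 CPM in HFHC and 2.39 to 3.13 CPM in Chow, overlapped between the diets. Its antisense neighbour Copg2, a coat protein gene, held 35.7, 34.1 and 34.9 CPM in HFHC and 38.7, 31.8 and 39.2 CPM in Chow, also with overlap (-0.07 ± 0.09, adjusted p = 0.736). Their exons share 23.1% of the bases of Mest and 17.8% of those of Copg2, so reads there can belong to either gene.

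Sgce, which encodes epsilon-sarcoglycan and starts beside Peg10, stood at 3.75, 3.78 and 3.79 CPM in HFHC and at 3.42, 2.68 and 2.49 CPM in Chow. Each HFHC liver was higher, and the change did not pass (0.40 ± 0.16, adjusted p = 0.179 by edgeR). It was 0.56 after the GC and length correction (adjusted p = 0.0702). Peg10, a retrotransposon-derived gene essential in placenta, ranged from 0.576 to 0.954 CPM in HFHC and from 0.339 to 0.689 CPM in Chow. Ppp1r9a, further along, held 15.8, 14.7 and 16.8 CPM in HFHC and 15.6, 15.8 and 16.6 CPM in Chow (95% interval -0.22 to 0.18).

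Signalling and RNA-processing members overlapped between the diets. Gnas, the stimulatory G protein subunit downstream of the glucagon receptor, stood at 273, 276 and 263 CPM in HFHC and 276, 291 and 283 CPM in Chow. Its log2 fold change was -0.07 ± 0.07, with a 95% interval of -0.23 to 0.10. Gene-level counts pool its imprinted transcripts, antisense exons (Nespas and Gm20721) cover 22.0% of its exonic bases, and its values were not whole in all 6 libraries. Snrpn, a splicing protein gene of the Ube3a domain, ranged from 8.36 to 9.86 CPM in HFHC and 7.70 to 10.8 CPM in Chow, and Ndn from 0.704 to 0.891 and 0.641 to 0.721 CPM. Exons of genes on the same strand, Snurf among them, cover 27.3% of the exonic bases of Snrpn. Impact, a regulator of the amino acid-sensing kinase GCN2, held 16.3, 15.4 and 15.4 CPM in HFHC and 14.4, 17.3 and 15.3 CPM in Chow (0.005 ± 0.10, 95% interval -0.22 to 0.22).

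Several paternally expressed members are retrogenes or noncoding RNAs inside an intron of a host gene. Mcts2, a translation factor gene inside H13, stood at 4.199, 4.23 and 4.69 CPM in HFHC and 3.79, 4.14 and 3.85 CPM in Chow, without overlap and without passing (0.15 ± 0.13, adjusted p = 0.543 by edgeR). Its host H13, the signal peptide peptidase, held 82.3, 79.7 and 78.1 CPM in HFHC and 81.9, 84.3 and 83.3 CPM in Chow. Zrsr1 held 19.2, 19.6 and 15.5 CPM in HFHC and 19.4, 24.1 and 21.7 CPM in Chow (-0.26 ± 0.12, adjusted p = 0.234), and Commd1 around it, which acts in copper handling, 28.7, 25.4 and 32.1 CPM and 25.6, 23.0 and 27.4 CPM (0.18 ± 0.11, adjusted p = 0.371). In both pairs the log2 fold changes of insert and host differed in sign, with 95% intervals that spanned both signs. No member of either pair was called.

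Peg13, a noncoding RNA inside Trappc9, stood at 6.84, 5.89 and 4.80 CPM in HFHC and 5.77, 6.20 and 5.09 CPM in Chow, and Trappc9, a trafficking complex gene, at 13.6, 12.5 and 11.03 CPM and 10.02, 12.4 and 10.1 CPM. Both overlapped. Inpp5f, a phosphoinositide phosphatase gene, held 31.8, 32.8 and 32.4 CPM in HFHC and 29.8, 32.8 and 29.3 CPM in Chow (95% interval -0.10 to 0.25). Nap1l5 had 10 counts over the HFHC livers and 10 over the Chow livers, and neuronatin (Nnat) 4 and 9, and neither passed the count filter.

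The intervals show how far these data bound a difference. In 16 of the 29 tested genes the 95% interval lay inside 1.5-fold either way and in 26 inside 2-fold. The other 3 were Airn, Peg3 and Peg10. Within a diet, the coefficient of variation over 3 livers was 0.489% to 29.7% in HFHC and 1.46% to 33.4% in Chow among tested genes, with Sgce and H13 at the low ends, Plagl1 and Peg10 at the high ends.

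**Figure D4:**
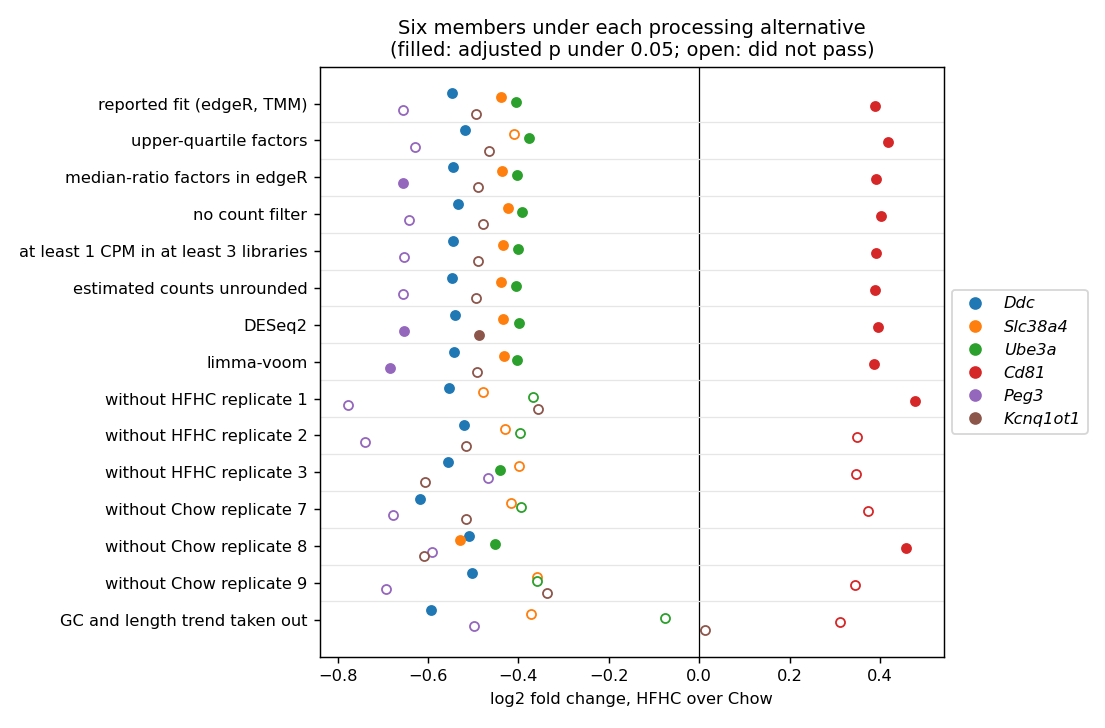
Log2 fold change, HFHC over Chow, of 6 genes (colours) under the reported fit and 14 alternatives (rows), filled where the adjusted p was under 0.05. Ddc is filled in every row, and Ube3a and Kcnq1ot1 lie at -0.08 and 0.012 in the last row, which holds the GC and length correction.

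Other genes reported as imprinted in mouse were listed by name, 56 in all, and 33 were tested. Of these 3 were lower and 1 higher (12.1%, against 6.67% of all genes), with a median log2 fold change of -0.08. The noncoding RNAs Meg3 (8.42 ± 1.17 CPM in Chow and 0.733 ± 0.146 CPM in HFHC, SD, n = 3) and Rian (4.94 ± 1.11 and 0.403 ± 0.191 CPM) of chromosome 12 fell by 3.51 ± 0.19 and fell by 3.61 ± 0.31 on the log2 scale, outside the range of -0.66 to 0.46 of the genes above. The sterol reductase gene Dhcr7 rose by 0.67 ± 0.13 (adjusted p = 0.0210 by edgeR), and the histone demethylase-like gene Jmjd1c fell by 0.55 ± 0.13 (adjusted p = 0.0353). The call of Dhcr7 was lost without HFHC replicates 1 or 2 or Chow replicate 7 (adjusted p up to 0.0897, without the last). That of Jmjd1c was kept only without Chow replicate 8 (elsewhere up to 0.133, without Chow replicate 7) and was lost after the GC and length correction (0.137).

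Of 26 tested imprint maintenance and DNA methylation factors, 2 were lower and none higher (7.69%, near the 6.67% of all genes, median -0.12). The list mixes factors that keep or write DNA methylation with others that remove it, such as the TET enzymes, or that modify histones. Atrx, a chromatin remodeller, fell from 99.9 ± 7.26 to 73.3 ± 6.11 CPM (SD, n = 3, adjusted p = 0.0220 by edgeR) and the methylcytosine oxidase gene Tet3 from 33.4 ± 4.57 to 23.6 ± 2.99 CPM (adjusted p = 0.0444). The call of Atrx was lost without HFHC replicates 1 or 2 or Chow replicates 7 or 9 (adjusted p up to 0.0948), and that of Tet3 without HFHC replicates 2 or 3 or Chow replicates 7 or 8 (up to 0.129), both highest without Chow replicate 7. After the GC and length correction the adjusted p was 0.396 for Atrx and 0.0648 for Tet3.

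Among the partners of IGF2 in the IGF system 15 were tested, 3 lower and 1 higher (26.7%, against 6.67% of all genes, median -0.23). The insulin receptor substrate gene Irs1 fell from 41.9 ± 3.82 to 22.4 ± 5.37 CPM (SD, n = 3, adjusted p = 0.0117 by edgeR) and was called in all 6 fits without a library. The binding protein gene Igfbp2 fell from 323 ± 103 to 154 ± 26.6 CPM (adjusted p = 0.0220), and Igf1, the main liver IGF, from 719 ± 34.8 to 564 ± 30.1 CPM (0.0376). Igf2bp2, whose product binds Igf2 mRNA, rose from 0.521 ± 0.0998 to 1.57 ± 0.416 CPM (0.0141). The call of Igfbp2 was lost without HFHC replicates 2 or 3 or Chow replicates 7 or 9 (adjusted p up to 0.0727), and that of Igf2bp2 without Chow replicates 7 or 9 (up to 0.0638). That of Igf1 was kept only without HFHC replicate 3 (elsewhere up to 0.157). Igf1 also lost it after the GC and length correction (0.485).

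Of the 6 tested genes that are silenced in liver after birth like H19, or that regulate such genes, 1 was called (16.7%, against 6.67% of all genes). The repressor gene Zbtb20 fell from 274 ± 26.3 to 176 ± 28.6 CPM (SD, n = 3, adjusted p = 0.0178 by edgeR). Its call was lost without HFHC replicates 1 or 3 or Chow replicates 7 or 9 (adjusted p up to 0.0631) and after the GC and length correction (0.235).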

How the data were processed

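Per the labels' protocols, RNA was isolated with miRNeasy kits, depleted of ribosomal RNA, made into TruSeq stranded total RNA libraries and read as pairs on a NextSeq500. STAR 2.7.3a, Partek 9 and the build mm10 are named in the submitters' processing notes. How reads were counted, on which strand and with which annotation, is not stated in the labels or the table. The table deposited by the authors holds estimated counts (expected counts) per gene, not normalized, of which 22.4% are not whole (tolerance 0.01).

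Members were matched by symbol, and position, exonic length and overlaps come from GENCODE M21, where all 35 were found. Table ends lie 1 base past GENCODE's in 19520 of 19714 matched genes, so that base was taken off. Counts were rounded, filtered with filterByExpr (minimum count 10) and scaled by TMM (0.9705 to 1.0216). The comparison used edgeR 4.0.16 with no covariate, and the SE is the log2 fold change over the square root of F. One count is worth 0.0318 to 0.0379 CPM. Intervals are the log2 fold change plus or minus a t quantile times the SE. They bound the difference between diets as estimated from these 6 animals and do not describe the spread of single animals. Marker sums had an exact permutation test over 20 assignments. Alternatives used DESeq2 1.42.0, limma 3.58.1 (voom), other factors and filters, unrounded counts, a threshold of 0.01 and each library left out. One alternative, loess trends of each library on GC content and log transcript length used as offsets (14678 genes), was chosen after seeing the data.

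On simulated data with 14896 genes the comparison called 36 of the 67 genes given a 1.5-fold change, 56 of the 67 at 2-fold and 65 of the 66 at 4-fold, and 11 of its 168 calls were false. The simulated counts followed the fitted trend of variance on level, with no variance particular to a gene and no GC or length trend. So these rates need not hold for the real comparison. The members and lists were chosen with earlier results of these data known. Every measured member is named, and 1 gene near a member is not reported here. From each pathway list the text names up to 3 called genes per direction by smallest p. Values are given per liver for members that were called, had an unadjusted p under 0.05 or reached 10 CPM, and others were added. Sums, motif searches and summaries ran in Python 3.11.15 (pandas 2.3.3, numpy 2.4.6), and the fits in R 4.3.3. Promoters are shown for the called members and Peg3.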

Additional observations from a re-analysis of the deposited data

How the results depend on the processing

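No paired analysis was possible because the diets share no replicate number and the labels give no pairing. With a library left out, genes called ranged from 207 to 527 higher and 154 to 553 lower, members called from 0 to 1 higher and 1 to 3 lower, and list members called from 2 to 5 (other imprinted genes), 0 to 1 (imprint maintenance and DNA methylation factors), 1 to 4 (IGF genes) and 0 to 1 (genes silenced after birth). The counts over all genes shrank by over 1.5 times without HFHC replicate 1 or 2 or Chow replicate 7 or 9, and the lower calls also without HFHC replicate 3. An adjusted p under 0.01 left 166 genes higher and 116 lower, 0 members higher and 1 lower (Ddc), and 2 of the other imprinted genes, 0 imprint factors, 0 IGF genes and 0 genes silenced after birth. After the GC and length correction, which called 5.73% of all genes, 0 members were higher and 1 lower (Ddc). It called 0 imprint factors and 0 genes silenced after birth. DESeq2 called 5 members lower and 3 imprint factors, with 8.09% of all genes called. Upper-quartile factors and no count filter each called 1 imprint factor. Of the 18 measured members without exons shared with another gene, 15 were tested. Of these 0 were higher and 2 lower (13.3%, against 6.67% of all genes).

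The median over members stayed between -0.037 and 0.033. Over 15 alternatives and 29 members, 391 of 432 results kept direction and side of the threshold, 20 lost the call, 4 gained it and 17, in 8 members, turned in sign. None of these 8 was called by edgeR. Leaving out a library moved the log2 fold change of Igf2r from -0.066 to 0.117, Grb10 from -0.40 to 0.082, Ppp1r9a from -0.067 to 0.031, Snrpn from -0.032 to 0.225, Impact from -0.053 to 0.09 and Peg13 from -0.084 to 0.163. Upper-quartile factors gave 0.009 for Ppp1r9a, and the GC and length correction gave 0.183 for Ppp1r9a, -0.047 for Slc22a18 and 0.012 for Kcnq1ot1. The cause of these changes was not tested. At a floor of 3 counts a gene under 0.0954 to 0.114 CPM was not detectable.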

Other observations

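The imprinted genes have other genes within 500000 bases of their domains, and 158 such neighbours were tested, with 10 called higher and 5 lower (9.49%, against 6.67% of all genes). These neighbours were chosen by distance after the values of the imprinted genes were seen. Neighbours called higher around Igf2r and Airn, where Igf2r itself overlapped between diets, included the cholesterol-related thiolase gene Acat2 (102 ± 9.98 CPM in Chow and 179 ± 42.9 CPM in HFHC, SD, n = 3), the RNA-trimming enzyme gene Pnldc1 (0.892 ± 0.291 and 3.68 ± 1.43 CPM) and the receptor gene Mas1. Mas1 had 1, 2 and 3 counts in the Chow livers and 11 in each HFHC liver. Of these, Pnldc1 was called in all 6 fits without a library (adjusted p up to 0.0363 by edgeR), Acat2 in 3 of them (up to 0.0877), and Mas1 in none of the 3 in which it passed the count filter.

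Beside Slc38a4, its relative Slc38a2, another system A amino acid transporter gene, fell from 229 ± 44.2 to 129 ± 12.4 CPM (log2 fold change -0.83 ± 0.14, SE, adjusted p = 0.00881 by edgeR). Its HFHC livers held 116, 133 and 139 CPM and its Chow livers 215, 194 and 279 CPM. Slc38a2 was called in all 6 fits without a library and after the GC and length correction (-0.70, adjusted p = 0.0253). Near the Kcnq1ot1 domain the tRNA synthetase gene Cars rose from 19.2 ± 2.15 to 29.1 ± 2.12 CPM (adjusted p = 0.0111 by edgeR), also in all 6 fits. Among the 3 tested neighbours of Grb10 and Ddc and the 8 of the Ube3a domain, none was called by edgeR at an adjusted p under 0.05.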
